A study of Arabidopsis thaliana with 4 samples.

Results

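The gibberellin oxidase genes of Arabidopsis encode 3 subfamilies of related dioxygenases that set the level of active gibberellin. Searching gene symbols and synonyms for numbered GA20OX, GA3OX and GA2OX names found 17 genes among the annotated genes, 15 by their symbol and 2, GA2OX1 and GA2OX3, by a synonym. One of them, GA2OX5, is annotated as a transcribed pseudogene, which left 16 of 27444 protein-coding genes. The starting list named 10 of the 17, and the other 7 came from the same search. LEC1-GFP peaks were assigned to a gene when at least 1 bp of the peak lay in the gene or within 1 kb of either end, and 6 of the 6356 peaks met that rule.

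The peaks come from chromatin immunoprecipitation and sequencing in whole bent cotyledon-stage seeds, the stage at which embryos accumulate reserves. The plants were homozygous for the lec1-1 mutation and for the transgene LEC1:LEC1-GFP:LEC1, in which LEAFY COTYLEDON1 (LEC1), a seed regulator and NF-YB family member of the NF-Y complex that binds CCAAT boxes, is fused to green fluorescent protein. Anti-GFP precipitates (2 biological replicates) and input chromatin of the same genotype and stage (2 biological replicates) were sequenced and compared, and 1 peak list stands for all samples. Embryo, endosperm and seed coat were not separated, so the tissue in which a site was occupied cannot be told apart. Each value below describes that list and has no replicate error, the depth of the libraries is unknown, and no test was made on the oxidase genes, which were chosen with earlier results of these data known.

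Gibberellins promote germination, stem growth and flowering, and in maturing seeds they act against abscisic acid, the hormone of reserve deposition and dormancy. GA20-oxidases carry out the successive oxidations that yield the direct precursors, and GA3-oxidases then add the hydroxyl group that makes a gibberellin active. GA2-oxidases hydroxylate another position and so inactivate gibberellins or their precursors. In Arabidopsis embryos GA3OX2 is known to be kept low by LEC2 and FUS3, B3-domain regulators of maturation.

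LEC1-GFP occupied some members of each subfamily and left most of the family without a peak. Peaks lay in or within 1 kb of GA20OX3, GA3OX2, GA3OX4, GA2OX2 and GA2OX4, that is 5 of the 16 protein-coding oxidase genes (31.2%). Among all protein-coding genes the share was 24.6%, so the count for the family stood near the background. Of the 10 genes first listed, 3 had a peak, GA20OX3, GA3OX2 and GA2OX2. The pseudogene GA2OX5 had none, its nearest peak being 21600 bp away.

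**Figure D1:**
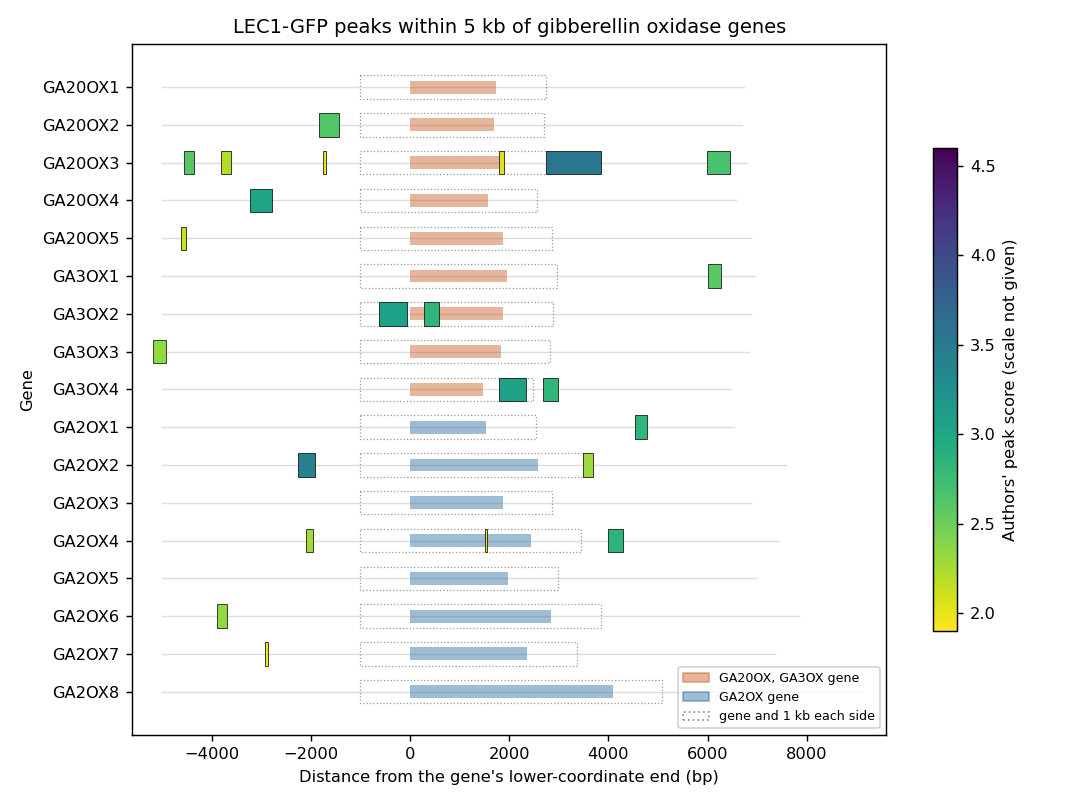
Peaks (bars with black edges, coloured by the authors' score) within 5 kb of each of the 17 genes, plotted by distance in bp from the gene's lower-coordinate end, with the gene as a filled box and the 1 kb window as a dotted frame. The GA20OX3 row carries the widest peak, and GA20OX1, GA2OX3, GA2OX5 and GA2OX8 have none within 5 kb.

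The activating enzymes were occupied at 3 of 9 genes and the inactivating enzymes at 2 of 7, counts that differ by 1 gene. By subfamily, peaks were found at 1 of 5 GA20-oxidase genes, 2 of 4 GA3-oxidase genes and 2 of 7 GA2-oxidase genes. The share of all protein-coding genes was 24.6%. GA3OX4 was counted only through a peak that it shares with GA3OX2. With that peak counted for the closer gene, GA3OX2, the counts were 2 of 9 activating and 2 of 7 inactivating genes. The score is a value the authors gave each peak, its scale is not stated in the sources used here, and it served only to rank peaks within the list, where it ran from 1.92 to 4.51 with a median of 2.45. The highest score at each activating gene with a peak was 3.54 at GA20OX3 and 3.07 at GA3OX2 and GA3OX4, which share that peak. The GA2-oxidase genes had 2.31 at GA2OX2 and 1.97 at GA2OX4, both below the median of all peaks. Only the 3178 peaks with the higher scores were then used. Of these, a peak lay within 1 kb of 3 of 9 activating genes and 0 of 7 inactivating genes. GA3OX4 was again counted only through the peak shared with GA3OX2. The share of all protein-coding genes was 13.5%. This contrast between the classes depended on the 1 kb window. From 1 to 2 kb, peaks above the median score lay at GA2OX2 (3.41) and GA2OX4 (2.85). The same held for the activating genes GA20OX2 (2.63) and GA3OX4 (2.83). The median of the highest scores was 3.07 over the 5 oxidase genes with a peak and 2.51 over all 6738 protein-coding genes with one. That 3.07 is the peak shared by GA3OX2 and GA3OX4, which entered the median once for each gene. The 5 values ran from 1.97 to 3.54, on both sides of 2.51.

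**Figure D2:**
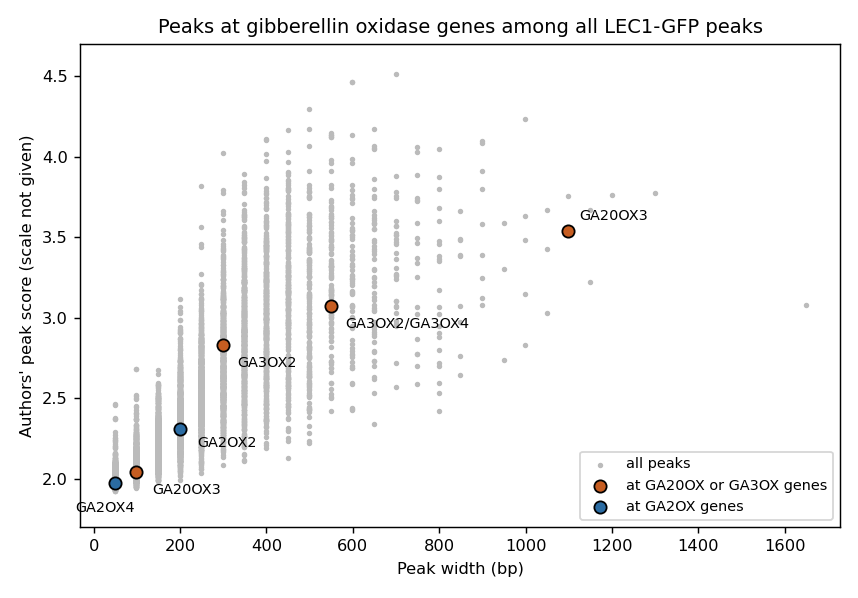
Score against width in bp for all 6356 peaks (grey) and the 6 peaks at oxidase genes (coloured by enzyme class). The peaks at GA2OX2 and GA2OX4 lie in the lower left with scores of 2.31 and 1.97, while the wide GA20OX3 peak of 1099 bp scored 3.54.

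Among the GA20-oxidase genes, GA20OX3 (AT5G07200) stood in a cluster of LEC1-GFP peaks. Its strongest peak (TAIR10 chromosome 5, 2246301 to 2247399) ranked 216 by score among the 6356 peaks and was 1 of 10 peaks at least 1000 bp wide, where the median width was 249 bp. It began 962 bp beyond the higher-coordinate end of the gene, near the edge of the window, and no other protein-coding gene lay within 1 kb of it. A second, narrow peak of 99 bp (chromosome 5, 2245351 to 2245449) lay 12 bp from the same end, with a score of 2.04 that ranked 5806. Peak edges fall on a 50 bp grid, so such a distance is no finer than that.

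The space around GA20OX3 was wide and held further peaks outside the 1 kb window. Between its neighbours ATS3 and RR21, the latter a response regulator gene of the cytokinin pathway, 13.5 kb held 7 peaks, of which 3 had their midpoint nearest to GA20OX3. The third of these was a 49 bp peak (score 1.98) 1704 bp from the lower-coordinate end. Of the other 4, those with scores of 2.67 and 2.32 lay nearer to RR21 and those with 2.61 and 2.21 nearer to ATS3. Across all protein-coding genes only 4.06% had 2 or more peaks in the gene or within 1 kb, and among the oxidase genes GA20OX3 and GA3OX2 did.

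The remaining GA20-oxidase genes had no peak within 1 kb. GA20OX1, the main GA20-oxidase of stem growth, was 5702 bp from its nearest peak, a 149 bp peak with a score of 2.15. GA20OX2, which acts with GA20OX1 in vegetative growth and flowering, came closest to the window, with a peak 1430 bp from its lower-coordinate end (score 2.63; chromosome 5, 21053351 to 21053749), whose midpoint was nearer to the adjacent gene AT5G51800. GA20OX4 was 2774 bp from a peak with a score of 3.03 that overlapped its neighbour AT1G60970. GA20OX5 was 4517 bp from a peak with a score of 2.13.

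Of the GA3-oxidase genes, GA3OX2 (AT1G80340) had LEC1-GFP on both sides of its lower-coordinate end. The first peak (chromosome 1, 30199851 to 30200399) was 549 bp wide, scored 3.07, ranked 896 and ended 67 bp outside the gene. The second (chromosome 1, 30200751 to 30201049) lay inside the gene, starting 285 bp from that end, and scored 2.83 with a rank of 1567. The annotation used gives neither strand nor exons, so the end of the gene that carries both peaks and the exon or intron below the second are not stated here.

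GA3OX4 (AT1G80330), a GA3-oxidase gene used in developing fruits and seeds, is the direct neighbour of GA3OX2, and the 549 bp peak lies in the 928 bp between them. It was 314 bp from GA3OX4 and 67 bp from GA3OX2, and it was the only peak within 1 kb of GA3OX4. With each peak given to its nearest gene alone, GA3OX4 no longer had a peak. The pair are related neighbouring genes, and the sources used here do not say how reads mapping to several places were handled.

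GA3OX1, the main GA3-oxidase of vegetative growth, had no peak within 1 kb, and its nearest peak (score 2.58) was 4059 bp away. That peak lay in the 15522 bp that separate GA3OX1 from the cyclin gene CYCA2;3, and GA3OX1 was the nearer gene. GA3OX3, expressed mainly in flowers, was 4930 bp from a peak with a score of 2.34 whose midpoint was nearest to the nitrate transporter gene NRT1.8.

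Of the 7 GA2-oxidase genes, 2 had a peak within the window, each with a score below the median of all peaks. GA2OX2 (AT1G30040), which restrains gibberellin in imbibed seeds kept in the dark, had a 199 bp peak 907 bp beyond its higher-coordinate end (chromosome 1, 10540951 to 10541149) with a score of 2.31 and a rank of 4009. A stronger peak lay on its other side but outside the window, 1908 bp from the gene (chromosome 1, 10535201 to 10535549), with a score of 3.41 and a rank of 355. GA2OX2 was the nearest gene to that peak as well, in a space of 21071 bp that reaches to nMAT1.

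GA2OX4 (AT1G47990) had a single peak within the window, 49 bp wide and inside the gene (chromosome 1, 17700101 to 17700149), with a score of 1.97. It ranked 6213 of 6356, and 472 peaks in the list had that smallest width. Outside the window were a peak with a score of 2.29 at 1949 bp on the lower-coordinate side, and one with 2.85 at 1560 bp on the other side, nearer to the transcription factor gene MYB112.

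The other GA2-oxidase genes had no peak within 1 kb. GA2OX6, named as a target of the embryo MADS-box factor AGL15, was 3701 bp from a peak (score 2.34) that lay at its neighbour GPAT2. GA2OX1 was 3001 bp from a peak with a score of 2.83, nearest to AT1G78450. GA2OX7, which inactivates earlier precursors with the longer carbon skeleton, was 2874 bp from a 49 bp peak with a score of 1.96. GA2OX8, the other enzyme of that class, and GA2OX3 were the most isolated protein-coding members, at 13783 bp and 17994 bp from any peak. No peak in the list does not show that LEC1 was absent, because the threshold of the peak calling and the depth are not known.

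The width of the window changed which oxidase genes were counted. Within 500 bp the count was 4 of 16, losing GA2OX2, against 20.4% of all protein-coding genes, and GA20OX3 was then counted through its narrow peak alone. Within 2000 bp GA20OX2 was added, giving 6 of 16 against 31.5%. The GA20OX3 peak at 962 bp and the GA2OX2 peak at 907 bp were the ones just inside the 1 kb limit. Just outside it lay the second GA3OX2 peak, 1214 bp from GA3OX4, and the GA20OX2 peak at 1430 bp. In the gene body alone, 2 of 16 genes had a peak, GA3OX2 and GA2OX4, against 12.5% of all genes, and in the flanks alone 4 of 16 did, against 21.4%.

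Measured as a distance, the nearest peak was a median of 2774 bp from the 9 activating genes (0 to 5702 bp) and 3001 bp from the 7 inactivating genes (0 to 17994 bp). Over all protein-coding genes the median was 5088 bp. A peak lay within 5 kb of 8 of 9 activating and 5 of 7 inactivating genes, and of 49.6% of all protein-coding genes. Within 10 kb these counts were 9 of 9 and 5 of 7, against 68.9%. The other 5 inactivating genes lay within the range of the activating genes, and GA2OX3 and GA2OX8 lay beyond it.

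**Figure D3:**
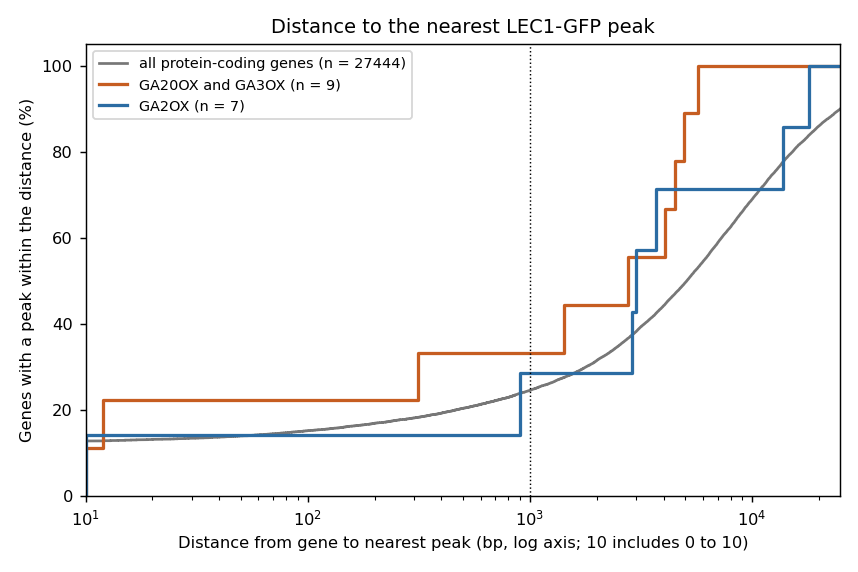
Cumulative share of genes (%) with a LEC1-GFP peak within a given distance in bp (log axis), for GA20OX and GA3OX genes, GA2OX genes and all protein-coding genes, with a dotted line at 1 kb. At 1 kb the lines for the activating and inactivating genes stand at 3 of 9 and 2 of 7, against 24.6% of all genes.

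Oxidase genes lie in wide spaces, a feature the choice of members did not use. The wider of the gaps on either side of each gene had a median of 4928 bp over the 16 oxidase genes and 1430 bp over all protein-coding genes, and it was at least 2000 bp for 15 of 16 oxidase genes and for 39.2% of all. GA3OX4, with a wider gap of 928 bp, was the exception. Oxidase genes with a peak (median wider gap 4710 bp, 5 genes) and without one (5146 bp, 11 genes) both exceeded that median of all genes. Counting every peak with its midpoint in the gene or in the spaces up to both neighbours gave 11 of 16 oxidase genes, against 28.1% of all protein-coding genes and 38.8% of those with a wider gap of at least 2000 bp. The gene and its spaces together had a median length of 10.2 kb over the 16 oxidase genes. Over all protein-coding genes with a wider gap of at least 2000 bp the median was 7.45 kb, so less space was searched there. Of the 15 oxidase genes with such a gap, 10 had a peak by this count. The activating genes contributed 7 of 9 and the inactivating genes 4 of 7.

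These counts include peaks that lie closer to the neighbouring gene. Of the 11 genes, GA20OX3, GA3OX1, GA3OX2, GA2OX2 and GA2OX4 had at least 1 peak whose midpoint was nearest to them. For GA20OX2, GA20OX4, GA3OX3, GA3OX4, GA2OX1 and GA2OX7 every peak in the space was nearer to another gene. Per 10 kb of gene and surrounding space there were 1.46 peaks at the oxidase genes and 0.606 at all protein-coding genes, with a peak counted once for each gene whose space it lies in. Without GA20OX3, which held 7 of the 24 pairs of peak and gene, the value was 1.13.

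The steps before and after the oxidases were counted with the same 1 kb rule, under which 24.6% of all protein-coding genes had a peak. Early synthesis genes had peaks at 3 of 5 members. The peaks of GA1, GA2 and GA3, which encode copalyl diphosphate synthase, kaurene synthase and kaurene oxidase, all overlapped the gene, and their scores were 2.66, 2.59 and 2.81. KAO1 and KAO2, the kaurenoic acid oxidase genes that supply the GA20-oxidases, had no peak within 1 kb, the nearest lying at 4296 bp and 5339 bp.

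Other inactivating enzymes had peaks at 2 of 4 genes, beside the share of 24.6% over all protein-coding genes that holds for each list. The methyltransferase gene GAMT2 had a peak with a score of 2.07 at 108 bp, and the cytochrome P450 gene CYP714A2 had one with 2.53 inside the gene. GAMT1 and CYP714A1 had none within 1 kb. Receptor, DELLA and SLY1 genes, which carry the signal of the finished hormone, had peaks at 6 of 9 members. Peaks of the DELLA genes GAI, RGL1 and RGL2 lay at 883 bp, 815 bp and 899 bp. Within 500 bp the count was 3 of 9, against 20.4% of all protein-coding genes. The receptor gene GID1B had the highest score among them, 3.48, and GID1A had a narrow peak with 1.97, while the nearest peak to GID1C was 42960 bp away.

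Taking the 3 lists of other gibberellin genes as one, 11 of 18 had a peak (61.1%), whereas the oxidases had 5 of 16 (31.2%), against 24.6% of all protein-coding genes. Within 500 bp these counts were 8 of 18 and 4 of 16, against 20.4%. The comparison was made with fixed flanks only. In the spaces up to their neighbours 11 of 16 oxidase genes had a peak, against 28.1% of all protein-coding genes. Among protein-coding genes with a wider gap of at least 2000 bp the share was 38.8%. For GA20OX2, GA20OX4, GA3OX3, GA3OX4, GA2OX1 and GA2OX7 every such peak was nearer to another gene. The other lists were not counted in that way. The 13 abscisic acid genes gave 8 with a peak (61.5%), 4 of 9 for synthesis and 4 of 4 for breakdown by the CYP707A hydroxylases, whose highest scores ran from 2.32 at CYP707A3 to 2.88 at CYP707A1. NCED9 and NCED6, synthesis genes active in seeds, had scores of 2.30 and 2.08. The synthesis genes ABA1 and NCED3 had 2.28 and 2.81, while ABA2, ABA3, AAO3, NCED2 and NCED5 had no peak within 1 kb. The GA20OX3 score of 3.54 was above the highest score of each of the 19 other hormone genes that had a peak. Among those 19 genes, only GID1B had a score above the 3.07 of GA3OX2. The GA20OX3 peak began 962 bp from the gene, and the only peak within 500 bp of GA20OX3 scored 2.04. These lists are short, were chosen with earlier results known and were not tested against each other.

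**Figure D4:**
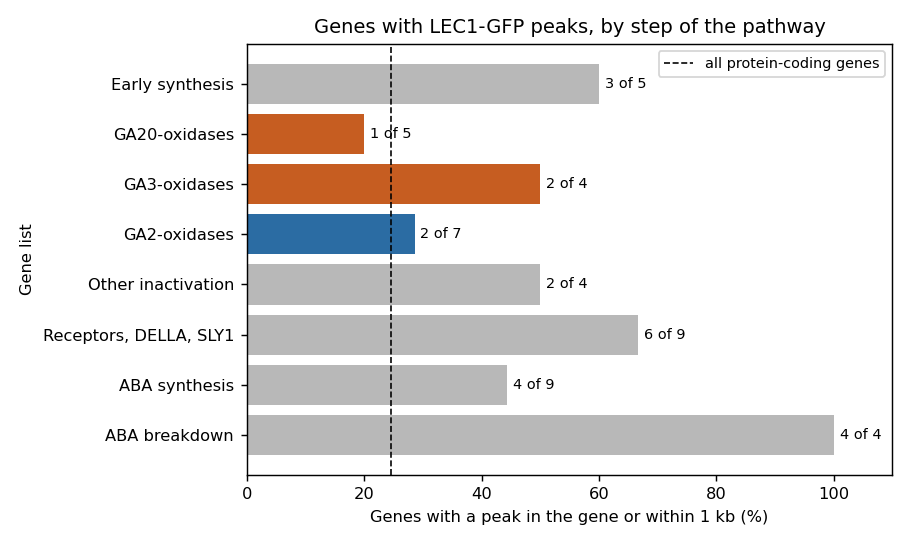
Share of genes (%) with a LEC1-GFP peak in the gene or within 1 kb for each step of gibberellin metabolism and signalling and for abscisic acid (ABA) synthesis and breakdown, with the number of genes at each bar and a dashed line at the 24.6% of all protein-coding genes. GA20-oxidases (1 of 5) and GA2-oxidases (2 of 7) stand near the dashed line.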

How the data were processed

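The data used are the deposited peak list, with a score per peak that the authors assigned. Its scale, the peak caller, the threshold and any pooling of replicates are not given in the sources used for this list. Per the submitters' processing notes, reads were processed with Bowtie 0.12.7 and SAMtools 0.1.19 on TAIR10. All 6356 starts were raised by 1 to count from 1.

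Genes came from a RefSeq table of assembly TAIR10.1 without strand, exons or sequence, so gene positions are not printed, and the planned motif search and upstream-only window were not run. As a check of the match, 34.0% of peak midpoints lay inside genes, against 64.0% and 62.7% with peaks moved by 10000 bp to either side. Overlaps and distances were computed with Python 3.11.15 and pandas 2.3.3, and the assignment was tested on simulated data.

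The members, lists and rules were chosen with earlier results of these data known. All oxidase genes found by name, the listed pathway genes and neighbours at their peaks are named. The alternatives were other flanks, overlaps, peak subsets and gene assignments. The window up to neighbouring genes, the list of 10 and the peak shared within the family were added after the data were seen.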

Additional observations from a re-analysis of the deposited data

How the results depend on the processing

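Counts of genes with a peak were 5 of 16 oxidase genes, 3 of 9 activating and 2 of 7 inactivating, against 24.6% of all protein-coding genes. The inactivating count was 1 within 500 bp, in the flanks alone, with the peak midpoint or at least 50% of the peak required in the window, and among the 10 listed genes, and it was 0 with the 3178 higher-scoring peaks. The share of all protein-coding genes moved too. It was 20.4% within 500 bp, 21.4% in the flanks alone, 23.6% with the midpoint or 50% rule and 13.5% with the higher-scoring peaks. The total was 3 of 16 with those peaks. Among the listed genes it was 3 of 10 (30.0%), near the 31.2% of all 16, and the inactivating count there was 1 of 5. In the gene body alone the counts were 2, 1 and 1, against 12.5% of all protein-coding genes. In the spaces up to the neighbouring genes the counts were 11, 7 and 4, against 28.1%. The activating count lay within 1.5 times its value in the other 10 of 12 settings. The cause of these shifts was not tested beyond the fewer peaks, fewer genes or other windows that each setting uses by construction. No paired analysis was possible because the deposited list has no values per sample, and for the same reason no replicate could be left out.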
